A study of Caenorhabditis elegans with 24 samples.

Results

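Young adults of the strain CF1041, which carries daf-2(e1370), were compared with young adults of the wild type strain N2 on the first day of adulthood. The comparison was set by strain and age alone and took 6 of the 24 libraries of the series, 3 of N2 and 3 of CF1041 (daf-2 below), and every gene that passed a filter on low counts. Positive differences mean higher in daf-2. The study followed both strains through adult days 1, 4, 7 and 11, and the other 18 libraries entered here to estimate the spread and, in a closing comparison, as later ages. Worms of both strains came from bleached embryos held 16 hours in S-basal at 20°C, grew on plates seeded with OP50, and received 50 µM FUDR, which blocks DNA synthesis and so the hatching of progeny, from the L4 larva on. Whole bodies were harvested, and their total RNA, depleted of ribosomal RNA, went into stranded libraries. In whole worms, fewer cells of a type and less RNA per cell cannot be told apart. Nothing in the labels says whether the 3 libraries of a strain came from separate cultures, so p-values measure only the spread between these libraries.

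daf-2 encodes the insulin and IGF-1 receptor of Caenorhabditis elegans. When insulin-like peptides activate it, a kinase chain (AGE-1, PDK-1, AKT-1 and AKT-2) phosphorylates the FOXO transcription factor DAF-16 and holds it outside the nucleus. Mutants with reduced receptor activity are long-lived and stress resistant, and DAF-16 in their nuclei raises genes of detoxification, metal binding and fat metabolism while other genes fall.

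The 6 libraries held between 26686740 and 32655703 expected counts, and between 18073 and 19358 genes were above 0. Ribosomal RNA made up 13.72% and 14.55% of the counts in the libraries numbered 3 and between 3.9% and 8.83% in the other 4. Of 16698 genes tested, 293 (1.75%) passed edgeR's quasi-likelihood test at an adjusted p under 0.05. In daf-2, 191 of them (1.14%) were higher and 102 (0.611%) were lower. The median difference over all tested genes was -0.02 on the log2 scale and the median standard error 0.31. Most differences that passed were large. At least a 2-fold difference was seen in 262 of the 293, and 203 (69.3%) had a mean under 10 CPM (counts scaled to the effective library size), against 53.8% of all tested genes. The 3 libraries of one strain lay entirely above or below those of the other for 291 of the 293, against 9.47% of all tested genes. All 3 pairs of libraries with the same number pointed the same way for all 293 genes, against 41.1% of all tested genes. The 293 were picked by a test on these same libraries, so both agreements largely follow from that choice and add no support. Libraries with the same number deviated together from their strain means, and the same model with that number as a block called 663 genes (3.97%), 427 higher and 236 lower, with all 293 among them. With the libraries numbered 3 left out at every age, 327 genes passed and 190 of the 293 were among them. Leaving out daf-2 library 2 left 168 calls, N2 library 1 left 189 and N2 library 2 left 190.

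**Figure D1:**
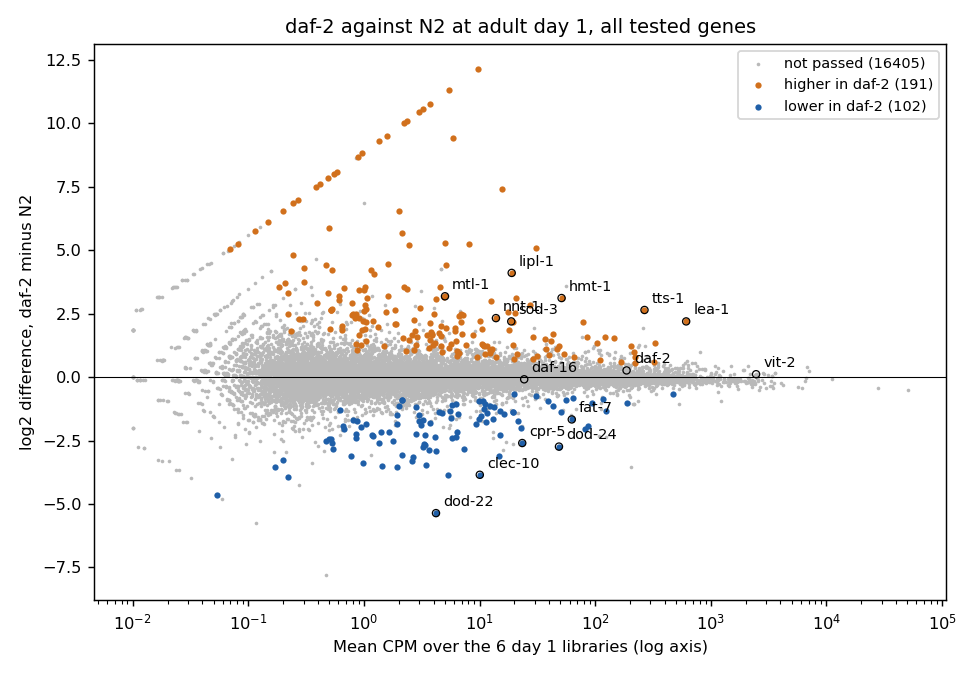
Each point is 1 of 16698 tested genes, with the mean CPM over the 6 day 1 libraries on a log axis and the log2 difference between daf-2 and N2 on the other axis; genes at 0 in all 6 libraries are drawn at the left edge. Orange points (191) passed the test as higher in daf-2 and blue points (102) as lower, and the diagonal line of orange points at the upper left holds genes with no count in N2.

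The receptor and its pathway differed little in transcript level. daf-2 RNA stood at 132.5, 224.6 and 152.8 CPM in the N2 libraries and at 243.5, 226 and 140.9 CPM in the mutant. The strains overlapped, with a log2 difference of 0.26 ± 0.26 (SE, n = 3 and 3, adjusted p = 1). A change in the protein sequence need not alter the level of its RNA, so the RNA level is no test of the genotype. daf-16, the FOXO factor, overlapped as well, at 16.0 to 31.3 CPM in N2 and 18.8 to 31.8 CPM in daf-2. None of the 15 tested genes of the core pathway passed edgeR's test, and their median difference was 0.09. An unadjusted p under 0.05 was reached by 3 of them, against 1315 of all 16698 genes. DESeq2 called 0 and the replicate block 1. akt-2, a kinase between receptor and FOXO factor, was the one furthest from 0 among the kinases at 0.56 ± 0.18 (adjusted p = 0.159), with all 3 daf-2 libraries above all 3 of N2.

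Insulin-like peptides, the candidate ligands of the receptor, moved at low levels. Of 27 tested members, 3 were higher in daf-2 (11.1%, against 1.14% of all genes) and 0 lower. The median over the members was 0.55 against -0.02 over all genes. ins-10 stood at 0.0840, 0.165 and 0.0993 CPM in N2 and 0.984, 2.29 and 3.32 CPM in daf-2, a difference of 4.20 ± 0.54 (adjusted p = 7.86e-05). ins-22 went from 0.207 to 0.529 CPM in N2 to 0.938 to 2.29 CPM in daf-2 (1.85 ± 0.33). ins-23, which neighbours ins-22 on chromosome III, went from 0.0827 to 0.378 CPM to 0.656 to 1.97 CPM (2.48 ± 0.44). None of these 3 overlapped between strains and each was scarce in both strains. With the replicate block 6 members were higher, and with the libraries numbered 3 left out 1 was. ins-10 lies inside vps-39 on the other strand, and it is not given in the sources used here whether reads were counted by strand. ins-7, an agonist known to be lowered by active DAF-16, was at 1.13, 2.11 and 2.81 CPM in N2 and 1.09, 0.695 and 0.548 CPM in daf-2. Those groups did not overlap, but the difference of -1.39 ± 0.52 did not pass (adjusted p = 0.303). ins-17 had no call either, at 4.14 to 6.85 CPM in N2 and 5.80 to 7.396 CPM in daf-2.

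Genes known as raised through DAF-16 were higher in daf-2 in 8 of 20 tested cases (40%, against 1.14% of all genes) and lower in 0. Their median difference was 1.58, and the list was written with earlier results on these libraries known. sod-3, the mitochondrial manganese superoxide dismutase (chromosome X, 17092753 to 17094306, WBcel235), was at 6.22, 5.42 and 8.60 CPM in N2 and 29.8, 36.8 and 25.9 CPM in daf-2. Every mutant library exceeded every N2 library, and the fold was 4.56 (log2 2.19 ± 0.31, adjusted p = 0.000191). mtl-1, a metallothionein that binds metal ions, was at 0.252, 0.868 and 1.79 CPM in N2 and 2.92, 7.12 and 17.2 CPM in daf-2 (3.18 ± 0.60, adjusted p = 0.00398). Its size moved from 2.32 without daf-2 library 3 to 4.01 without N2 library 3. ftn-1, a ferritin that stores iron, was at 0.462, 1.12 and 1.39 CPM in N2 and 7.76, 6.08 and 12.96 CPM in daf-2 (3.15 ± 0.59, adjusted p = 0.00369). Within each strain, mtl-1 and ftn-1 varied up to several fold between libraries, yet neither overlapped between strains.

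tts-1, a long non-coding RNA known to be abundant in daf-2 mutants (chromosome X, 1504131 to 1504841), was at 17.01, 75.3 and 128.9 CPM in N2 and at 250.3, 628.5 and 500.8 CPM in daf-2. Its groups did not overlap, and the fold was 6.24 (2.64 ± 0.44, adjusted p = 0.00105; 3.32 without N2 library 3). nnt-1, a mitochondrial nicotinamide nucleotide transhydrogenase, rose 4.99-fold (2.32 ± 0.33, adjusted p = 0.000265; 2.91 without N2 library 3), from 2.56 to 7.68 CPM in N2 to 14.4 to 28.2 CPM in daf-2. hil-1, a linker histone variant, rose 3.72-fold (1.90 ± 0.26). dod-3 rose by 2.39 ± 0.52 on the log2 scale, and its call was lost without N2 library 1, N2 library 2 or daf-2 library 3. sip-1, a small heat shock protein, was at 153.6, 239.3 and 164.2 CPM in N2 and 592.6, 537.3 and 291.2 CPM in daf-2. That rise of 1.35 ± 0.32 (adjusted p = 0.0262) was lost without N2 library 1 or 3, or daf-2 library 1 or 2.

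Other members of the DAF-16-raised list did not pass. lys-7, a lysozyme, was at 72.5, 155.9 and 93.1 CPM in N2 and 482.3, 553 and 209.3 CPM in daf-2. No library of one strain reached into the other, but the test gave 1.95 ± 0.54 and an adjusted p of 0.0743. The peroxisomal and cytosolic catalases ctl-2 and ctl-1 differed by 0.16 ± 0.21 and 0.34 ± 0.22 (adjusted p = 1 and 0.931). hsp-16.2, an inducible small heat shock gene, ran from 0.0840 to 1.19 CPM in N2 and from 0.0729 to 4.74 CPM in daf-2. Its sign turned with 1 library, from 1.86 with all to -0.70 without daf-2 library 3. The 8 rises of the list were 6 to 8 on leaving out 1 library and 3 when only the 6 day 1 libraries were fitted.

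Of 9 tested genes known as lowered with active DAF-16, 3 were lower in daf-2 (33.3%, against 0.611% of all genes) and 0 higher. Their median was -0.78, with 3 of the 9 above 0, and the list was written with earlier results on these libraries known. Summed over the list, N2 libraries held 445 to 615 CPM and daf-2 libraries 393 to 654 CPM, which overlapped. dod-22 was at 8.69, 6.91 and 9 CPM in N2 and at 0.182, 0.243 and 0.161 CPM in daf-2. All 3 mutant libraries were far below N2, with a difference of -5.36 ± 0.47 (adjusted p = 4.84e-07). dod-24 was at 108.2, 97.3 and 48.1 CPM in N2 and at 9.73, 12.1 and 16.0 CPM in daf-2 (-2.74 ± 0.53, adjusted p = 0.00495). dod-22 and dod-24 lie in a run of 4 lower genes on chromosome IV between 12940106 and 12969289. F55G11.2 (-3.12 ± 0.41) and F55G11.8 (-1.44 ± 0.37, adjusted p = 0.0456, lost without daf-2 library 1 or 2 or any one N2 library) were the other two of the 7 tested there. dod-23 fell by 1.35 on the log2 scale (SE 0.31, adjusted p = 0.0213) and lost its call without N2 library 2 or 3, or daf-2 library 1 or 2. dod-17 was at 19.7 to 25.7 CPM in N2 and 9.91 to 14.8 CPM in daf-2, and -0.78 ± 0.44 did not pass (adjusted p = 0.812).

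The pud genes are named for proteins upregulated in daf-2 mutants. None of 6 passed edgeR's test at day 1, and DESeq2 called 0. An unadjusted p under 0.05 was reached by 4 of the 6, against 1315 of all 16698 genes. All 6 differences were negative, and the median was -2.35. pud-1.2 differed by -2.33 ± 0.76 (adjusted p = 0.178) and pud-3 by -2.88 ± 0.92 (adjusted p = 0.163). Summed over the 6 genes, N2 libraries held 112 to 908 CPM and daf-2 libraries 58 to 173 CPM. Those sums overlapped, and with the replicate block 2 members were lower. The symbol pud-2.2 names a pair of near-identical genes, between which RSEM divides reads, so single values of this family are uncertain. Over days 4, 7 and 11 the median difference of these 6 genes was -0.81.

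**Figure D2:**
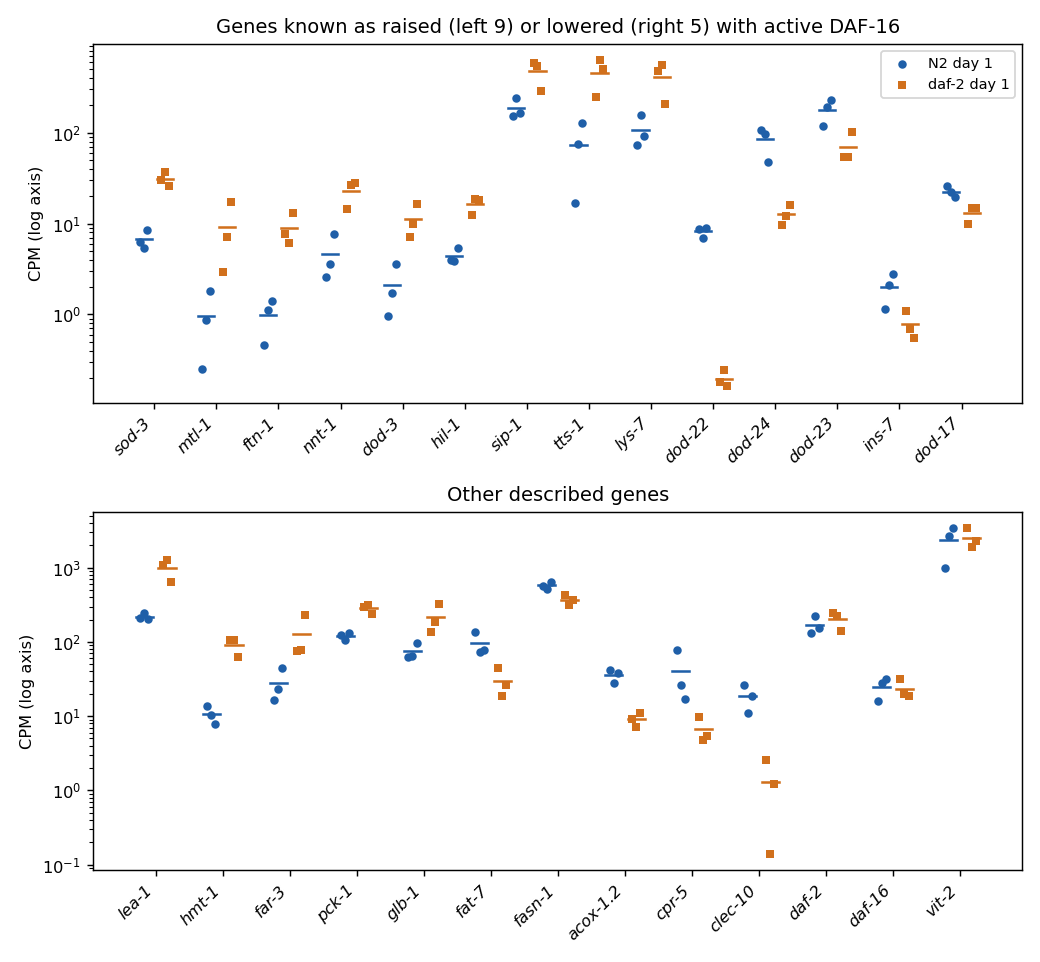
Points are CPM in single day 1 libraries on a log axis, N2 in blue and daf-2 in orange, and short lines are the means of 3 libraries. sod-3, mtl-1, ftn-1 and tts-1 do not overlap between strains, nor do dod-22 and dod-24, whereas daf-2, daf-16 and vit-2 do.

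Among genes at 10 CPM or more with a gene-class symbol, 8 rises were followed as the largest. lipl-1, a lysosomal lipase, was at 0.420, 1.45 and 4.27 CPM in N2 and at 12.57, 44.5 and 50.5 CPM in daf-2, a 17.1-fold rise (4.10 ± 0.69, adjusted p = 0.00131; 5.25 without N2 library 3). hmt-1, an ABC transporter of heavy metal tolerance, was at 13.9, 10.3 and 7.74 CPM in N2 and at 104.9, 106.9 and 63.3 CPM in daf-2 (8.63-fold, 3.11 ± 0.29, adjusted p = 8.6e-07). lea-1, a late embryogenesis abundant protein of desiccation tolerance, was at 212.6, 243.1 and 203.3 CPM in N2 and at 1089, 1278 and 643.6 CPM in daf-2 (4.57-fold, 2.19 ± 0.32, adjusted p = 0.000265). For all 3 genes the mutant libraries lay entirely above N2. lea-1 overlaps acl-2 on the other strand, which had 5950 counts in N2 and 5947 in daf-2. hmt-1 overlaps W09D6.5, which had 776 and 755.

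Further rises in this group concerned diverse functions. unc-38, a nicotinic acetylcholine receptor subunit of muscle and nerve, rose 7.997-fold, from 1.62 to 4.58 CPM in N2 to 12.8 to 31.1 CPM in daf-2 (3.0 ± 0.40, adjusted p = 0.000122). rnh-1.3, which encodes a ribonuclease H, rose 7.05-fold, from 6.13 to 7.61 CPM to 39.6 to 62.7 CPM. sdz-24 rose 5.91-fold, from 4.09 to 5.92 CPM to 26.8 to 31.98 CPM. sqrd-1, a sulfide quinone oxidoreductase that oxidises hydrogen sulfide, rose 4.63-fold, from 3.01 to 4.18 CPM to 13.8 to 18.99 CPM (2.21 ± 0.24, adjusted p = 7.95e-06). None of these calls was lost on leaving out a library.

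The 8 largest falls in the same range of levels included 2 lectins, a protease and an acyltransferase, described here, and dod-24, acox-1.2, cyp-35C1 and fat-7, described with their lists. clec-10, a C-type lectin, was at 26.5, 11.0 and 18.8 CPM in N2 and at 2.55, 0.139 and 1.23 CPM in daf-2 (14.4-fold lower, -3.85 ± 0.65, adjusted p = 0.00141; -4.76 without daf-2 library 1). cpr-5, a cathepsin B family protease, was at 77.6, 26.1 and 16.8 CPM in N2 and at 9.66, 4.79 and 5.42 CPM in daf-2 (-2.60 ± 0.52, adjusted p = 0.00706). Its difference was -1.69 without N2 library 1, where it did not pass, and its call was also lost without daf-2 library 2. clec-47 was at 158.2, 140.8 and 92.0 CPM in N2 and at 31.01, 25.5 and 39.3 CPM in daf-2 (-2.03 ± 0.33). No library of daf-2 reached the level of any N2 library for these 3 genes. oac-20, an acyltransferase, fell by 1.77 on the log2 scale and was lost without N2 library 2 or any one daf-2 library.

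Lists of fat synthesis and oxidation gave 1 or 2 calls each. fat-7, a stearoyl-CoA desaturase that makes oleic acid, was at 134.9, 73.4 and 78.3 CPM in N2 and at 45.2, 18.5 and 26.1 CPM in daf-2. The strains did not overlap and the fall was 3.19-fold (-1.67 ± 0.40, adjusted p = 0.0297), but the call was lost without N2 library 1, daf-2 library 2 or daf-2 library 3. It was the 1 called of 17 tested desaturases and elongases (5.88%, against 1.75% of all genes). fasn-1, fatty acid synthase, was at 574.4, 523.5 and 647.5 CPM in N2 and at 425.1, 311.9 and 367.8 CPM in daf-2 (-0.66 ± 0.17, adjusted p = 0.0404). That call was lost without any one N2 library, or without daf-2 library 2 or 3. acox-1.2, a peroxisomal acyl-CoA oxidase, fell 3.99-fold, from 27.99 to 42.5 CPM to 7.15 to 11.0 CPM (-1.99 ± 0.25, adjusted p = 6.28e-05). In the same beta-oxidation list of 62 genes (3.23% called), acs-17, an acyl-CoA synthetase, rose 1.75-fold (0.81 ± 0.18, lost without N2 library 2, daf-2 library 1 or daf-2 library 2). far-3, a fatty acid and retinol binding protein, was at 16.8, 23.1 and 45.03 CPM in N2 and at 76.5, 78.3 and 228 CPM in daf-2. Its difference of 2.17 ± 0.50 (adjusted p = 0.0229) became 1.45 without daf-2 library 3, where it did not pass, and it did not pass without N2 library 1 or 2.

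Carbohydrate genes gave 2 rises among 23 of glycolysis and gluconeogenesis (8.7%, against 1.75% of all genes). pck-1, phosphoenolpyruvate carboxykinase of gluconeogenesis, was at 123.1, 107.2 and 131.8 CPM in N2 and at 299.1, 316.9 and 239 CPM in daf-2 (2.36-fold, 1.24 ± 0.25, adjusted p = 0.00878, lost without N2 library 2 or daf-2 library 2). gpd-2, a glyceraldehyde-3-phosphate dehydrogenase, rose 1.49-fold (0.57 ± 0.14, adjusted p = 0.032), and 5 of the 6 libraries each ended that call when left out, N2 library 1 being the exception. Both groups of libraries stayed apart for both genes. pccb-1, a propionyl-CoA carboxylase subunit, rose 1.53-fold (0.61 ± 0.13, adjusted p = 0.0106, lost without N2 library 2, daf-2 library 1 or daf-2 library 2). No gene of the tricarboxylic acid and glyoxylate cycle (25 tested) or of trehalose and glycogen metabolism (13 tested) passed. Vitellogenins, the yolk proteins made in the intestine, gave 0 calls among 6, with vit-2 at 990.7, 2679 and 3446 CPM in N2 and 3456, 1929 and 2273 CPM in daf-2. vit-1 was the member furthest from 0, at -1.06 ± 0.50 (adjusted p = 0.608).

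Detoxification genes moved in both directions. Of 71 cytochrome P450 genes, 3 were higher and 4 lower (9.86%, against 1.75% of all genes). cyp-35B1 was at 0.588, 0.538 and 1.22 CPM in N2 and at 3.35, 7.88 and 4.68 CPM in daf-2 (2.73 ± 0.42). cyp-35A3 moved the other way, from 8.06, 6.82 and 5.96 CPM to 1.28, 0.729 and 2.03 CPM (-2.36 ± 0.35), and so did cyp-13A2 (-1.66 ± 0.31). cyp-35C1 (-1.72 ± 0.38, -2.53 without daf-2 library 3) and cyp-35A2 (-0.90 ± 0.22) fell too, but lost their calls without daf-2 library 1, daf-2 library 2 or N2 library 3, and cyp-35A2 also without N2 library 1 or 2. Members of 1 enzyme family, cyp-35, were thus on both sides. Between 2 and 5 P450 genes were lower on leaving out 1 library.

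Conjugating enzymes had calls as well. Glutathione S-transferases gave 3 rises among 45 (6.67%), gst-29, gst-39 and gst-34, which lie together on chromosome II between 15168538 and 15183239. gst-39 was at 7.68, 6.45 and 10.4 CPM in N2 and 16.8, 17.5 and 18.7 CPM in daf-2 (1.11 ± 0.20, adjusted p = 0.00271). gst-4, a common reporter of oxidative stress, differed by 0.89 ± 0.68 and did not pass. With the replicate block 7 members of that family were higher. ugt-18, a UDP-glucuronosyltransferase, rose (2.49 ± 0.40) while ugt-22 fell from 111.9 to 149.8 CPM to 45.1 to 89.5 CPM (-1.01 ± 0.21, lost without daf-2 library 1 or 2). Among 65 tested UDP-glucuronosyltransferases 2 were lower and 1 higher (4.62%, against 1.75% of all genes). trx-1, a thioredoxin, rose at under 1 CPM (2.30 ± 0.47, lost without N2 library 1, N2 library 2 or daf-2 library 2). glb-1, a globin, was at 63.6, 65.3 and 96.1 CPM in N2 and at 138.3, 183.3 and 326.6 CPM in daf-2 (2.88-fold, 1.53 ± 0.28, adjusted p = 0.00363). It was the 1 call among 32 globin genes (3.12%).

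Innate defence genes were called in both directions. C-type lectins, secreted or membrane proteins of which many respond to pathogens, gave 9 falls and 3 rises among 142 tested (8.45%), with a median of -0.07 and 61 of the 142 above 0. DESeq2 called 9 rises, and the replicate block 9 rises and 13 falls. Besides clec-10 and clec-47, clec-218 fell from 4.47 to 8.10 CPM to 0.521 to 1.03 CPM (-2.89 ± 0.40) and clec-190 from 11.6 to 15.1 CPM to 0.834 to 2.58 CPM (-2.83 ± 0.38). clec-15 (WBGene00010399) had 1 count over the N2 libraries and 1017 over those of daf-2, a ratio of 912 with a 95% counting interval from 163 to 36047. Its daf-2 libraries spread widely, at 3.17, 29.3 and 2.77 CPM, and the fitted 9.43 became 7.45 without daf-2 library 2 and 11.4 without N2 library 3. The symbol clec-15 names a second gene as well, and the values here are those of WBGene00010399. With 1 count in N2 and that spread in daf-2, the size of the difference is uncertain. Lectin falls numbered 6 or 7 without any one library and lectin rises 1 to 5.

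Other defence lists had 0 to 3 calls each. lys-6, the 1 called of 13 lysozymes (7.69%, against 1.75% of all genes), fell by 1.61 on the log2 scale (SE 0.40, adjusted p = 0.0385). Its call was lost without N2 library 1, daf-2 library 2 or daf-2 library 3. ilys-5, an invertebrate-type lysozyme picked after its values were seen, was at 550.3, 357.8 and 225.6 CPM in N2 and 76.2, 6.22 and 14.8 CPM in daf-2, and just missed the threshold (-3.54 ± 0.92, adjusted p = 0.051). pals-26 and pals-37, of a family induced by intracellular pathogens, rose by 2.24 ± 0.40 and 2.31 ± 0.36, pals-26 by 2.92 without N2 library 3. pals-1 of that family fell (-1.93 ± 0.39, lost without daf-2 library 2). The list of other pathogen response genes, which holds the pals genes, gave 2 rises and 1 fall among 57 tested (5.26%). Epidermal antimicrobial peptides gave 2 rises and 0 falls among 31 (6.45%), both under 4 CPM. fipr-24 was at 0.168, 0.165 and 0.397 CPM in N2 and 0.692, 1.42 and 3.26 CPM in daf-2 (2.82 ± 0.61, adjusted p = 0.0148), and fipr-26 rose by 4.20 ± 0.98. Both calls were lost without N2 library 1, N2 library 2 or daf-2 library 3, and that of fipr-26 also without N2 library 3 or daf-2 library 2. DESeq2 called 4 of these peptides higher and 2 lower, and the replicate block 3 higher and 4 lower. Among 25 saposin-like genes edgeR called 0, and DESeq2 and the replicate block called 1 each. An unadjusted p under 0.05 was reached by 5 of the 25, against 1315 of all 16698 genes.

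Aspartic and cathepsin proteases gave 1 rise and 3 falls among 23 tested (17.4%, against 1.75% of all genes). Besides cpr-5, asp-8 fell (-1.41 ± 0.34), a call lost without N2 library 1 or 2 or any one daf-2 library. asp-12, an aspartic protease, rose from 69.5, 37.7 and 21.7 CPM to 124, 168 and 93.0 CPM (1.58 ± 0.38, adjusted p = 0.0297, lost without N2 library 2 or 3, or daf-2 library 1 or 2). asp-17 fell from 6.51 to 8.93 CPM to 0.548 to 1.24 CPM (-2.93 ± 0.51, adjusted p = 0.00203). Transthyretin-like genes, which encode secreted proteins, gave 4 rises and 0 falls among 51 (7.84%). ttr-26 was at 7.39, 3.89 and 10.03 CPM in N2 and 17.1, 26.8 and 50.8 CPM in daf-2 (2.15 ± 0.36, adjusted p = 0.00114). Without N2 library 2 or daf-2 library 3 the rises numbered 2. Collagens, the main proteins of the cuticle, gave 3 rises and 1 fall among 151 (2.65%), with col-43 lower from 7.01 to 11.3 CPM to 1.11 to 2.48 CPM (-2.39 ± 0.45). nhr-62, a nuclear hormone receptor linked to diet and lifespan, rose 2.33-fold (1.22 ± 0.28, lost without N2 library 1 or 2, or daf-2 library 2 or 3). flp-34, a neuropeptide gene, rose from 0.165 to 0.662 CPM to 2.19 to 3.02 CPM (2.55 ± 0.42, adjusted p = 0.00103).

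Measured as summed level, the 191 higher genes made up 2233, 2363 and 2767 CPM in the N2 libraries and 5993, 7324 and 6509 CPM in the daf-2 libraries. The 102 lower genes made up 2952, 2786 and 2910 CPM in N2 and 1324, 1048 and 1338 CPM in daf-2. These sums describe the genes the test picked and carry no test. By difference in CPM the rises were led by lea-1, tts-1, sip-1, pck-1 and ZK1055.7, the last at 116.6, 143.1 and 181.3 CPM in N2 and 241.1, 325.6 and 298.9 CPM in daf-2 (0.97 ± 0.20, lost without N2 library 1 or daf-2 library 2). The falls were led by fasn-1, sax-2, T05A12.4, clec-47 and dod-23. sax-2, a large Furry-family protein of neurite patterning, fell 2.06-fold, from 205.3 to 318.7 CPM to 111.4 to 133.7 CPM (-1.04 ± 0.21, lost without N2 library 2). T05A12.4, for which no role is given here, fell 3.77-fold, from 112, 179 and 122.6 CPM to 33.99, 34.9 and 40.9 CPM (-1.91 ± 0.20, adjusted p = 7.09e-06).

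The lists of the main tissues gave no calls by edgeR. Muscle (40 tested), intestinal (22), neuronal (45), germline (45), sperm (91) and oocyte (32) genes gave 0 calls each by edgeR and by DESeq2, where 1.75% of all genes passed edgeR's test. Lists this short can give 0 calls at that share, so 0 calls is no measure of tissue content. The replicate block called 2 intestinal, 1 sperm and 1 oocyte gene, all of them higher in daf-2. Among pharyngeal genes (14 tested) DESeq2 called 1 and the block 2, and among coelomocyte and glial genes (9 tested) the block called 1. In the 31 lists with no call by edgeR, 41 of 1026 tested members had an unadjusted p under 0.05 and DESeq2 called 2. Over all 16698 genes, 1315 had such a p and DESeq2 called 429. At day 1 the defining markers of muscle, intestine, nerve, pharynx, coelomocytes, germline, sperm and oocytes were all above 0 in all 6 libraries and none passed. unc-54, the body wall myosin, ran from 404 to 1479 CPM over the 6 libraries, and rme-2, the yolk receptor of oocytes, from 516 to 1647 CPM. Both overlapped between strains. ges-1, the gut esterase, ran from 24.02 to 53.1 CPM, with every daf-2 library above every N2 library. Its log2 difference of 0.80 did not pass edgeR's test (adjusted p = 0.216). Summed intestinal genes stood at 4089 to 4635 CPM in N2 and 3941 to 4029 CPM in daf-2. A large part of that sum was asp-1, with means of 1997 CPM in N2 and 1436 CPM in daf-2 and no call. The median over the 22 intestinal genes was 0.11, and 14 of the 22 were above 0. end-1 and tbx-37, embryonic markers, were at most at 1.82 and 2.38 CPM. Summed oocyte genes held 9575 to 19493 CPM in N2 and 8113 to 18133 CPM in daf-2, and summed sperm genes 305 to 513 and 302 to 458 CPM. The oocyte and sperm ranges overlapped between the strains.

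The ribosomal, proteasome, respiratory chain, chaperone and autophagy lists named next gave no calls by edgeR or DESeq2. The replicate block called 1 nuclear respiratory chain gene and 1 autophagy and lysosome gene. The 82 cytosolic ribosomal protein genes had a median of -0.15 and 0 calls, and 3 of the 82 were above 0. The 33 proteasome subunits had a median of -0.14 with none above 0, the 66 mitochondrial ribosomal proteins -0.16 and the 67 nuclear respiratory chain genes -0.17. Scaling by library size alone moved the median of all genes by 0.08, which is not small beside these medians. Summed ribosomal protein genes overlapped between strains, at 98744 to 123858 CPM in N2 and 83826 to 114818 CPM in daf-2. Summed proteasome subunits did too, at 5916 to 8668 and 5326 to 7773 CPM. Endoplasmic reticulum chaperones (17 tested), mitochondrial chaperones and proteases (15) and autophagy and lysosome genes (33) gave 0 calls each, with medians of 0.05, -0.18 and 0.04.

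**Figure D3:**
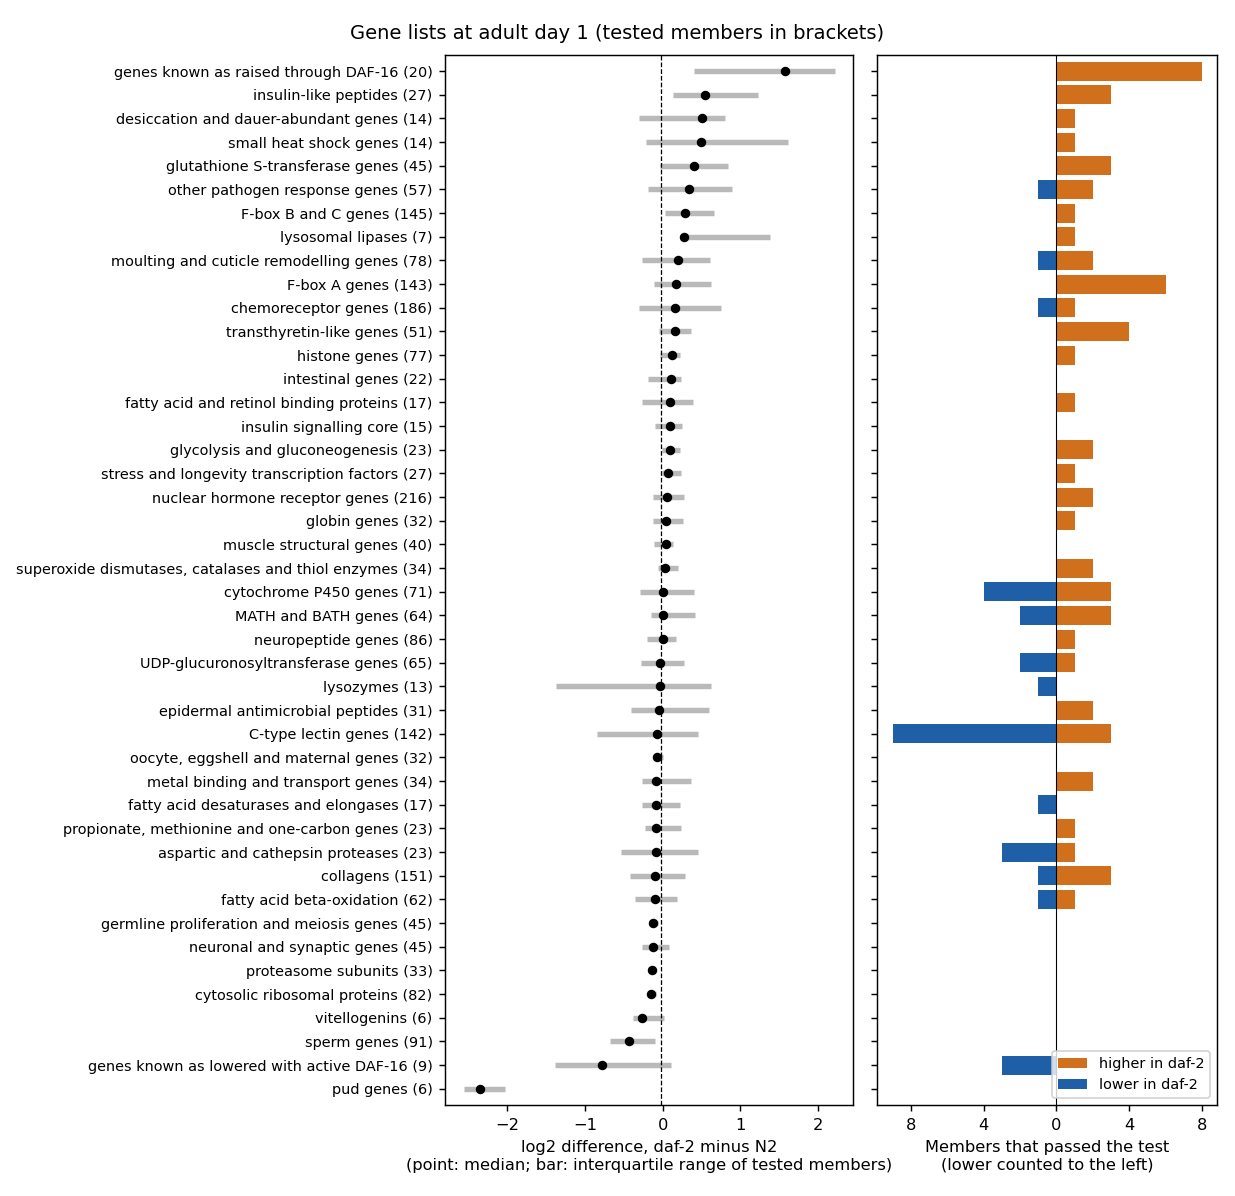
For every gene list with a called member, and for the pathway, tissue and other lists without one that are labelled here, the left panel shows the median log2 difference between daf-2 and N2 (point) and the interquartile range of its tested members (bar), with the median over all genes, -0.02, as a dashed line; the right panel counts members that passed as higher (orange) or lower (blue). Genes known as raised through DAF-16 stand at the top with a median of 1.58 and 8 rises, and the pud genes at the bottom with -2.35 and 0 calls.

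By position, calls were densest on chromosome V, where 73 of 3464 tested genes were higher and 37 lower (3.18%), and least dense on chromosome III (0.93%) among the nuclear chromosomes. Around daf-2 itself, at 2994514 to 3040846 of chromosome III, 3 of 284 tested genes within 1 Mb passed (1.06%). A stretch of 212 kb on chromosome V, from 17339084 to 17551209, held 82 annotated genes, 21 of them tested. In it 16 of the 21 were higher in daf-2 and 0 lower (76.2%). In equally long flanks 1 of 20 genes passed on one side and 0 of 26 on the other. The bounds were drawn from these same calls, as the outer ends of runs of neighbouring genes called higher. The share within the stretch and its contrast with the flanks are therefore no test. Over the 3 N2 day 1 libraries the 82 genes had 4 counts in all, and over the 3 daf-2 libraries 6395. Across all ages they had 14 counts in the 12 N2 libraries and 39064 in the 12 daf-2 libraries, and 74 of the 82 genes had a count in daf-2 against 2 in N2. Chromosome V without the stretch still had 94 calls among 3443 genes (2.73%). Without the stretch 277 calls remained, 175 of them higher.

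Genes of the stretch include regulators of protein degradation and development. lsy-27, a zinc finger gene of neuronal asymmetry, was at 0 in all 3 N2 libraries and at 19.8, 22.2 and 15.9 CPM in daf-2. It was at least 501-fold higher, taking 3 counts over the N2 group as the floor (adjusted p = 9.52e-09). fbxb-7 was at 8.45, 9.65 and 14.5 CPM in daf-2 and at least 287-fold higher, and fbxa-189 was at 6.52, 7.74 and 8.19 CPM and at least 196-fold higher. Both are F-box genes, whose products pick targets for ubiquitin ligases, and skr-5 beside them encodes a Skp1-related subunit of such ligases. lsy-27 and skr-5 overlap on opposite strands, so their reads may be shared. Of the 6 F-box A genes called higher among 143 tested (4.2%, against 1.75% of all genes), 5 lie in the stretch. The sixth, fbxa-73, rose by 1.85 ± 0.43 and lost its call without N2 library 1 or 2, or daf-2 library 2. Without N2 library 3, 13 F-box A genes were higher, and with the replicate block 15. C18D4.6 and Y20C6A.1 of the stretch were at least 167-fold and 158-fold higher.

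**Figure D4:**
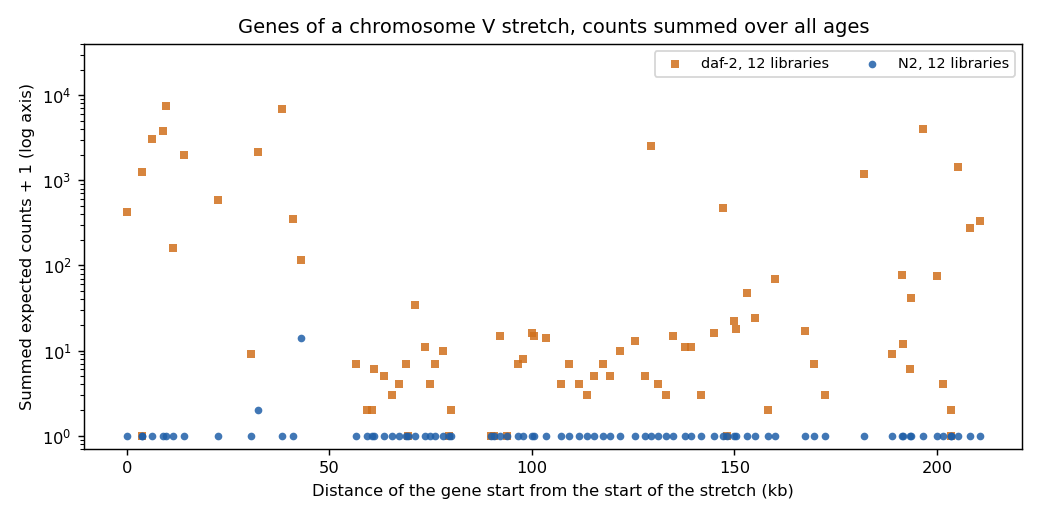
Each gene of the chromosome V stretch is drawn at the distance of its start from the start of the stretch, with expected counts summed over the 12 libraries of each strain plus 1 on a log axis, daf-2 in orange and N2 in blue. N2 points lie on the floor of 0 counts for all but 2 genes, whereas 74 of the 82 genes have counts in daf-2.

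At day 1, 92 genes had 0 counts in the 3 N2 libraries and were above 0 in all 3 of daf-2, 34 of them were tested and 23 passed. Of these 23, 16 lie in the chromosome V stretch, and all of the other 7 had counts in N2 at later ages. The reverse held for 35 genes, of which 1 passed, WBGene00010804, a pseudogene at 0.126, 0.165 and 0.0331 CPM in N2. Its call (adjusted p = 0.0444) was lost without any one library other than N2 library 3. hsp-16.1 (WBGene00002015) was at 0.420, 0.951 and 1.46 CPM in N2 and at 0 in daf-2, at least 28.6-fold lower, and did not pass (adjusted p = 0.163). Its near-identical copy WBGene00002017 was above 0 in both strains and differed by 1.81 ± 1.01, so the pair cannot be read singly.

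Other neighbouring genes moved together. The nspc genes, a nematode-specific family on chromosome X, were lower in 9 of 18 tested cases and higher in 0, where 0.611% of all genes were lower. They were chosen here after their values were seen, so neither this count nor their summed level is a test. Their summed level was 153 to 229 CPM in N2 and 66.5 to 98.2 CPM in daf-2, with no overlap. nspc-13 was at 8.94, 7.98 and 12.9 CPM in N2 and 0.947, 0.452 and 0.645 CPM in daf-2 (-3.86 ± 0.48, adjusted p = 4.67e-05). These genes are close copies between which reads were divided, so their values are not independent. On chromosome II a run of 4 pseudogenes between 1007792 and 1023528 was higher, and 3 of them held identical counts in every library and amount to 1 measurement. AC8.3 and AC8.10 shared identical counts too, so the 293 calls rest on 290 different sets of counts.

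Genes without a coding annotation were called too. Of 86 tested ncRNA genes 2 were higher and 1 lower (3.49%), and of 691 pseudogenes 13 were higher and 5 lower (2.6%), against 1.75% of all genes. Of the called pseudogenes, WBGene00009838, WBGene00043053, WBGene00007677 and WBGene00045293 lie in the chromosome V stretch. WBGene00018449, WBGene00018450 and WBGene00018451 shared identical counts and amount to 1 measurement. The share is therefore not read as a result about pseudogenes as a class. WBGene00014814, a pseudogene on chromosome II, rose 1.90-fold (0.93 ± 0.22, adjusted p = 0.03), from 6.91 to 10.2 CPM to 14.8 to 18.1 CPM, and only N2 library 3 could be left out without losing the call.

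The day 1 differences were set beside the mean difference between the strains over days 4, 7 and 11, which rests on other libraries but shares the estimate of the spread. Of the 293 genes, 231 (78.8%) also passed there in the same direction. At later ages 1588 of all 16698 tested genes passed, and the 231 make up 14.5% of those 1588. The later comparison took 18 libraries, against 6 at day 1. The 191 higher genes had a median of 2.19 at day 1 and 1.23 later, and the 102 lower genes -1.88 and -1.44. sod-3 and hmt-1 differed about as much later (2.06 and 2.73) as at day 1. fat-7 and cpr-5 stood at -3.39 and -4.34 later, and dod-24 and far-3 at -0.39 and -0.77, of which dod-24 did not pass later (adjusted p = 0.521) and far-3 did not either (0.0918). sip-1 was at 0.06 later and ins-7 at -3.46. Whether these genes differed between day 1 and later ages is a separate test.

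**Figure D5:**
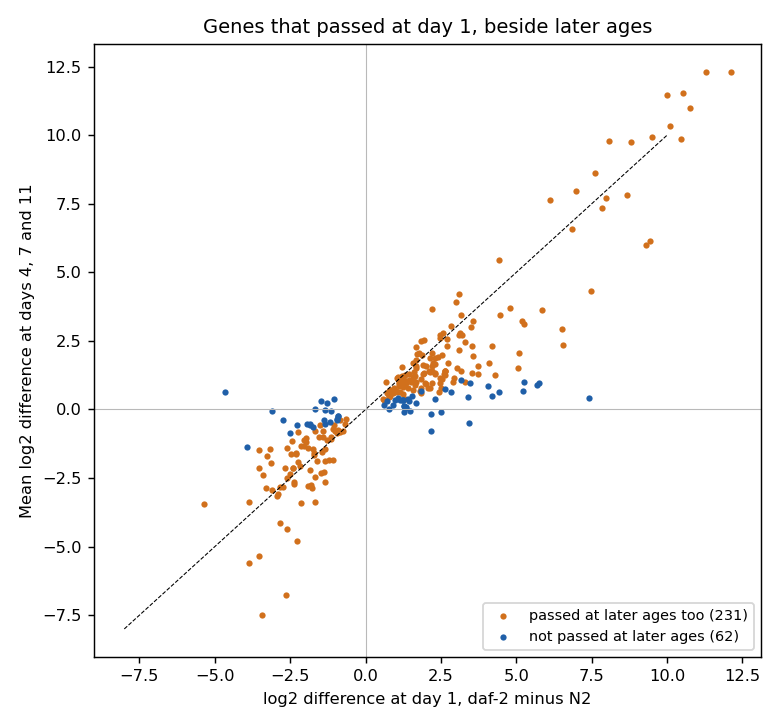
Each point is 1 of the 293 genes that passed at day 1, with the log2 difference between daf-2 and N2 at day 1 and the mean difference at days 4, 7 and 11; the dashed line marks equal differences. Of the 293, 231 passed at later ages as well (orange) and 282 kept their sign.

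The direct test of that departure called 8 of 16698 genes (0.0479%), 5 more positive and 3 more negative at day 1. An unadjusted p under 0.05 was reached by 802 genes, and the model with the replicate block called 85. Of the genes named above as differing in size, far-3, sip-1, dod-24 and fat-7 were not among the 8. far-3 departed by 2.94 ± 0.57 (adjusted p = 0.06). With the replicate block those 4 passed, at adjusted p of 0.0113, 0.0205, 0.0484 and 0.0301 in that order. So did cpr-5 (0.0419), lea-1 (0.0086), tts-1 (0.0461) and tbh-1 (0.0413). tbh-1 is a member of the neuronal and synaptic list and had no call at day 1. Which cells its RNA came from cannot be told in whole worms. ifb-2, an intermediate filament of the intestine, was at 99.7, 86.1 and 113 CPM in N2 and 105, 131 and 106 CPM in daf-2 at day 1. By day 11 it stood at 38.6, 38.5 and 44.5 CPM in N2 and at 17.8, 11.8 and 15.7 CPM in daf-2. The strains overlapped on day 1 and were apart on day 11, and the departure was 1.07 ± 0.18 (adjusted p = 0.0189). T15B7.1 ran the other way, at 89.3, 81.8 and 48.6 CPM in N2 and 29.2, 28.6 and 27.7 CPM in daf-2 on day 1, with means of 25.7 and 22.8 CPM on day 4. Without N2 day 1 library 2 no gene passed this edgeR test (907 had an unadjusted p under 0.05), and without N2 day 1 library 3 there were 20.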

How the data were processed

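The authors deposited an expected count for every gene and library. In each day 1 library 952 to 1058 of these were fractional, and all were rounded to integers here. Per the submitters' processing notes, RSEM 1.3.1 and STAR 2.7.0e were used, with the build WBcel235. Symbols and positions come from the Ensembl release 115 annotation, which held 46817 of 46904 identifiers. Genes with too few counts were removed by edgeR's filterByExpr over the 8 strain and age groups, and TMM factors were applied. All 24 libraries entered 1 edgeR 4.0.16 quasi-likelihood model (R 4.3.3) with 8 group means (its biological coefficient of variation was 0.273) and Benjamini-Hochberg adjustment at 0.05. DESeq2 1.42.0 was an alternative. Standard errors were derived from each difference and the square root of F.

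The gene lists (64, with 8 symbols unmatched) and the members were chosen with earlier results of these data known. Named genes were the 8 largest rises and falls with a gene-class symbol at a mean of 10 CPM or more, up to 4 called members per list or else the one with the highest mean, 10 fixed genes (among them daf-2, sod-3 and tts-1), and the leading non-coding, one-strain-only, largest-CPM-difference and age-departing genes; other genes in the text were picked after their values were seen. Libraries with the same number pair across strains at day 1 (correlations of deviations 0.243, 0.497 and 0.635), and over all groups each of the 24 libraries correlated best, on average, with those of its own number. At day 1 this held for 5 of 6 libraries, daf-2 library 1 being closer to N2 library 2 (0.251). Counts of any 2 libraries of a strain differed by more than sampling noise, with a median chi-square of 3.9 for the closest pair. Intervals and floors cover counting error only. On simulated counts for 16280 genes, the day 1 test called 60 of 100 genes changed 2-fold, 98 of 100 changed 4-fold and 7 unchanged ones. The changed genes all had a mean of at least 10 CPM over the 24 libraries, so these shares do not cover scarcer genes. The simulated counts also lacked the tie between libraries of the same number. Of the genes named by the rule and described, hmt-1, unc-38, sdz-24, nnt-1, lea-1, sod-3, oac-20, acs-17, far-3, gpd-2, ugt-22, pccb-1, vit-2, tbh-1 and lsy-27 overlap another coding gene, and whether reads were counted by strand is not given in the sources used here. Promoter sequences were not used here.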

Additional observations from a re-analysis of the deposited data

Results flagged for a closer look

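A total of 8 genes had a strain difference at day 1 that departed from its mean over days 4, 7 and 11, by edgeR's quasi-likelihood test of that departure with Benjamini-Hochberg adjustment. Of these, 5 were more positive at day 1. H39E23.3 departed by 7.00 ± 1.18 (log2, SE, adjusted p = 0.0189), with daf-2 at 9.80, 63.4 and 20.3 CPM and N2 at most at 0.289 CPM on day 1, whereas on day 11 the means were 54.6 CPM in daf-2 and 94.2 CPM in N2. F57H12.6 departed by 5.19 (adjusted p = 0.0147): its means were 1.39 CPM in N2 and 5.12 CPM in daf-2 on day 1, and 32.3 and 1.60 CPM on day 7. R05H10.7 departed by 4.80, at 4.92, 4.79 and 2.77 CPM in daf-2 on day 1 against means of 0.343 CPM or less at the later ages. F15B9.6 departed by 3.04, being 5.10 higher at day 1 and 2.06 higher later. ifb-2 departed by 1.07, with the strains overlapping on day 1. The other 3 were more negative at day 1. T20G5.8 departed by -2.26, with means of 3.82 CPM in N2 and 3.19 CPM in daf-2 on day 1 and 3.92 and 28.3 CPM on day 11. F26C11.1 departed by -1.80, being lower in daf-2 at day 1 (-1.48) and at 0.32 later. T15B7.1 departed by -1.34, at -1.36 on day 1 and -0.02 later. All 8 calls were lost without N2 day 1 library 2. F26C11.1 and T15B7.1 lost theirs without any of 16 and 18 single libraries of the 24.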

How the results depend on the processing

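No gene named by the rule that passed changed sign under any alternative run. The count of 293 genes became 663 with the replicate block, 580 with the block on the 6 day 1 libraries alone and 75 on those 6 without it, and from 168 to 326 on leaving out 1 library. On leaving out 1 library, 159 of the 293 were lost at least once and 134 never. DESeq2 gave 429, and other scalings, filters and gene sets gave 254 to 306, and the libraries numbered 3 left out 327. Scaling by library size alone moved the median of all genes by 0.08. The departure of day 1 from later ages, 8 genes, became 85 with the replicate block, 76 with DESeq2 and 0 to 20 on leaving out 1 library: leaving out library 1, 2 or 3 of the N2 day 1 group gave 2, 0 and 20 calls, the same for daf-2 day 1 gave 5, 1 and 4, and N2 library 2 of day 7 gave 14. The cause was not tested. The block changed the day 1 call of no gene named by the rule, but added the departure from later ages for 8 of them. Many of these 100 named genes had no day 1 call to lose. When only the 6 day 1 libraries were fitted, 28 day 1 calls among them were lost. Those of mtl-1, tts-1, nnt-1, lipl-1, clec-10, ttr-26 and glb-1 were included. At this depth a gene under 1 CPM had few counts per library, so its fold is imprecise.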

Other observations

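Genes outside the lists, picked after their values were seen, also moved. hex-1, a lysosomal beta-hexosaminidase, was at 50.7, 61.7 and 71.7 CPM in N2 and 115.9, 163.2 and 271.6 CPM in daf-2 (1.58 ± 0.26, adjusted p = 0.00112). icmt-1, an isoprenylcysteine methyltransferase, was at 0.504, 0.207 and 0.629 CPM in N2 and 8.09, 14.8 and 6.32 CPM in daf-2 (4.41 ± 0.68, adjusted p = 0.000593). hecw-1, a HECT-type ubiquitin ligase, rose by 1.43 ± 0.27. aakg-4, a gamma subunit of AMP-activated kinase, fell from 10.9, 8.93 and 11.2 CPM to 1.60, 2.33 and 3.03 CPM (-2.15 ± 0.31, adjusted p = 0.000286). None of these 4 overlapped between strains and none lost its call on leaving out a library.

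MATH and BATH genes, which encode adaptors of ubiquitin ligases, gave 3 rises and 2 falls among 64 tested (7.81%, against 1.75% of all genes). math-45 rose from 0.168 to 0.910 CPM to 2.004 to 3.96 CPM (2.62 ± 0.44; 3.28 without N2 library 2), math-44 by 1.88 ± 0.36 and bath-26 by 1.62 ± 0.33, the last lost without N2 library 2 or daf-2 library 3. math-10 fell by 3.11 on the log2 scale (SE 0.63, lost without daf-2 library 2; -4.22 without daf-2 library 3). math-4 was at 18.5, 11.3 and 15.6 CPM in N2 and 8.02, 8.02 and 5.58 CPM in daf-2 (-1.07 ± 0.25, adjusted p = 0.0223, lost without N2 library 1 or 3, or daf-2 library 2 or 3). With the replicate block 8 members were higher.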
